A study of Mus musculus with 23 samples.

Results

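Myelocytes of mouse bone marrow were described here as the cells that carried many transcripts of the secondary granule genes Ngp and Camp and few of the genes that mark the stages on either side. They were chosen by measured transcript levels. The rule required at least 1000 transcripts in a cell, at least 300 transcripts of Ngp and Camp per 10000, fewer than 40 of the primary granule genes Elane, Mpo and Prtn3, and fewer than 50 of the late genes Retnlg and Mmp9. It found 140 cells among the 707 micro-dissected cells that were deep enough, of 1546 micro-dissected cells and 1915 cells in all. Small clumps of attached cells from gently flushed marrow had been taken apart with needles, and each cell was sequenced by CEL-seq, which counts transcripts at the 3' end with short random tags. The comparison cells were 51 promyelocytes (at least 100 per 10000 of the primary granule genes, under 300 of Ngp and Camp and under 50 of Retnlg and Mmp9) and 85 mature neutrophils (at least 50 of Retnlg and Mmp9 and under 40 of the primary granule genes), from the same libraries. Sorted haematopoietic stem cells (HSC; negative for lineage markers, positive for Kit, Sca1 and CD150, negative for CD48) served as a distant group, and 0 of the 245 that were deep enough met the rule. No treatment or genotype is named for any group, and the sources used here give no strain, sex or age of the mice.

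Neutrophils are made in the marrow through a fixed series of stages. Promyelocytes fill primary (azurophil) granules with myeloperoxidase and serine proteases, myelocytes then fill secondary (specific) granules with lactoferrin, cathelicidin and neutrophil gelatinase-associated lipocalin, and later stages stop dividing, make gelatinase granules and gain the receptors of circulating neutrophils. The myelocyte is known as the last stage of the line that divides, and the transcription factor C/EBP epsilon is known to be needed for the secondary granule genes.

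The myelocytes made up 20.3% ± 10.8 of the kept cells of a library (SD, n = 17 libraries), or 19.8% of all kept cells (exact binomial interval 16.9% to 22.9%, which covers counting error only). Their share ran from 0% to 33.9%. They were seen in 16 of the 17 libraries, and 13 libraries held 3 or more. A myelocyte had a median of 2857 transcripts (1009 to 8989) from a median of 1139 genes. No 2 kept cells had identical profiles. Labels do not say which libraries came from which mouse, so p-values measure the spread between libraries. There were 5 cells within 10% of the primary granule limit, 2 within 10% of the Ngp and Camp limit and 3 within 10% of the Retnlg and Mmp9 limit. The myelocyte closest to the first limit had 39.8 transcripts of Elane, Mpo and Prtn3 per 10000, and the nearest cell left out had 41.3. For Ngp and Camp the lowest myelocyte had 322 per 10000, and the highest cell left out had 271. For Retnlg and Mmp9 the highest myelocyte had 40.1 per 10000, and the lowest cell left out had 50.8. Another 24 cells with enough Ngp and Camp were left out by their primary granule genes and 30 by Retnlg and Mmp9.

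Camp, Ngp and Ltf stand on mouse chromosome 9 within 1195.4 kb (GENCODE vM21, build GRCm38, chr9:109847379-111042767), with 570.1 kb between Camp and Ngp and 596.3 kb between Ngp and Ltf. Lcn2 lies on chromosome 2 (chr2:32384633-32388252, minus strand) and Chi3l3 on chromosome 3 (chr3:106147554-106167564, minus strand), and all 5 are protein-coding genes. The 250 bases before the RefSeq start of Ngp, Camp, Ltf and Lcn2 (GRCm38.p6) are shown because these are secondary granule genes that chose or mark the cells. Capitals mark matches to TTGCNNAA, a C/EBP-like motif, on either strand, and each sequence reads 5' to 3' on the strand of its gene.
Ngp (chr9:110419558-110419807, plus strand): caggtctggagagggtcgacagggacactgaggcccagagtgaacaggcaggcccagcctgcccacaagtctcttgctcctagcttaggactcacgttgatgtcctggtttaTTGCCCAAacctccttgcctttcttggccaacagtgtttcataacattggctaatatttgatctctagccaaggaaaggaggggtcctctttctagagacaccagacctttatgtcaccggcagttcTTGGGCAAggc
Camp (chr9:109849457-109849706, minus strand): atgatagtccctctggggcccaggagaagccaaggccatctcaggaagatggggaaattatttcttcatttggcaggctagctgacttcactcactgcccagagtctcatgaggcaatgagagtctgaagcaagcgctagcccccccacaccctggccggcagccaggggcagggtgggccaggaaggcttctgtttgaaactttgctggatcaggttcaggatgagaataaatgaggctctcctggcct
Ltf (chr9:111019042-111019291, plus strand): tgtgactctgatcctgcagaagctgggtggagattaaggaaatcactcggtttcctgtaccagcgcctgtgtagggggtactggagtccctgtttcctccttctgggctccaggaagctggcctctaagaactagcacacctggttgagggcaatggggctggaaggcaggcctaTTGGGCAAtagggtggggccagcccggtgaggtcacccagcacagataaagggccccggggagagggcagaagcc
Lcn2 (chr2:32387740-32387989, minus strand): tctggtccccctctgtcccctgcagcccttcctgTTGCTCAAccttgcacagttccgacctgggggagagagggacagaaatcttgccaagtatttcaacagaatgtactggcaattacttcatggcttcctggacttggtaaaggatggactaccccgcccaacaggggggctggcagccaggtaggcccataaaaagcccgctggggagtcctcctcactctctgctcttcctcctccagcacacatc

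The Ngp window held 2 matches, beginning 138 and 11 bases before the start. Ltf held 1 match at 75 bases and Lcn2 held 1 at 216 bases. The letters of the motif were not found in the Camp window. Of 32851 promoter windows of the same length in the RefSeq table, 9.56% held at least 1 match. A match is a description of the letters of a window, and binding was not tested.

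The 4 most abundant genes were S100a9, S100a8, Ngp and Camp, which gave 25.3% of all transcripts of the 140 cells combined. S100a9 and S100a8 gave 16.4% of them, and Ngp and Camp are genes of the rule. The first 15 genes gave 35.6%. S100a8 and S100a9 encode the subunits of calprotectin, a zinc- and manganese-binding protein of neutrophil cytosol. The highest value of a gene in a myelocyte was 1242 transcripts of S100a8, which stands for 254 of the 256 tags the method can tell apart, so the highest values of these genes are close to the ceiling of the method.

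Levels below are transcripts per 10000 in the summed cells of a class in a library. Because Ngp, Camp, Elane, Mpo, Prtn3, Retnlg and Mmp9 chose the cells, their levels are a description without a test. Over the 13 libraries with 3 or more myelocytes, Ngp (neutrophilic granule protein) ran from 313 to 642 with a median of 472. Camp, the cathelicidin precursor, ran from 282 to 511 with a median of 372. Both were found in 140 of 140 myelocytes. The primary granule genes were near 0 in the same libraries. Elane (neutrophil elastase) had a median of 2.74, Mpo (myeloperoxidase) 1.597 and Prtn3 (proteinase 3) 2.65. Retnlg had a median of 1.28 and Mmp9 (gelatinase B) 3.10.

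Single transcripts of granule genes in a cell need a background. Elane was found in 30.7% of myelocytes at a median of 2857 transcripts a cell and in 17.9% of 273 erythroid cells, which do not express it, at a median of 1851 transcripts. With each cell thinned to 1000 tags, which left out 2 myelocytes and 19 erythroid cells, the shares were 17.4% and 9.84%. For Mpo the thinned shares were 11.6% of myelocytes and 14.2% of erythroid cells. The rule capped the sum of Elane, Mpo and Prtn3 in myelocytes, so their shares of Elane and Mpo were in part set by the choice of cells. Whether Mpo in a myelocyte was at background cannot be told from these shares. Ltf had a thinned share of 97.1% in myelocytes and 25.2% in erythroid cells. Its level was 119 in myelocytes (median over 13 libraries), against 2.78 in erythroid cells (15 libraries). Ngp was likewise found at a median level of 7.58 in erythroid cells, against 472 in myelocytes.

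The cells were set against 16 lists of cell type markers, some of which hold genes of the rule, so that their sums were fixed in part by the choice of cells. The 9 myelocyte markers, with Ngp and Camp among them, summed to a median of 1280 per 10000 over the 13 libraries (901 to 1796). Markers of promyelocytes, with Elane, Mpo and Prtn3 among them, summed to 10.2 (3.85 to 18.5). Markers of macrophages summed to 1.23 (0 to 3.34), of B cells to 0.434 (0 to 3.71) and of stem and progenitor cells to 0.879 (0 to 3.55), with Cd34, Mecom and Procr at 0 in all 140 cells. Il1b, a gene of activated neutrophils, was also at 0, which allows a share of up to 2.14% of cells with a transcript. The 10 monocyte and dendritic cell markers summed to 19.3 (9.94 to 37.996). The red cell marker list was higher and summed to a median of 42.3 in myelocytes (7.83 to 466, 15 of 16 genes in the table found), against 12.2 in promyelocytes (3.15 to 117) and 59.4 in mature neutrophils (20.9 to 1216), and without the globins to 6.85 (3.31 to 27.9) in myelocytes. Eosinophil markers reached 1026 per 10000 in 1 myelocyte, and 9 of the 140 had 50 or more. The part of these transcripts in the results was not tested. A setting without cells with red cell markers left out those with 20 or more per 10000 of the list without the globins. Under it 2 named genes lost their call and 6 gained one. Those that lost it were Ltf and Actg1 (-0.31, adjusted p = 0.12 by edgeR), both against mature neutrophils. Counts of genes under this setting are given below.

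**Figure D1:**
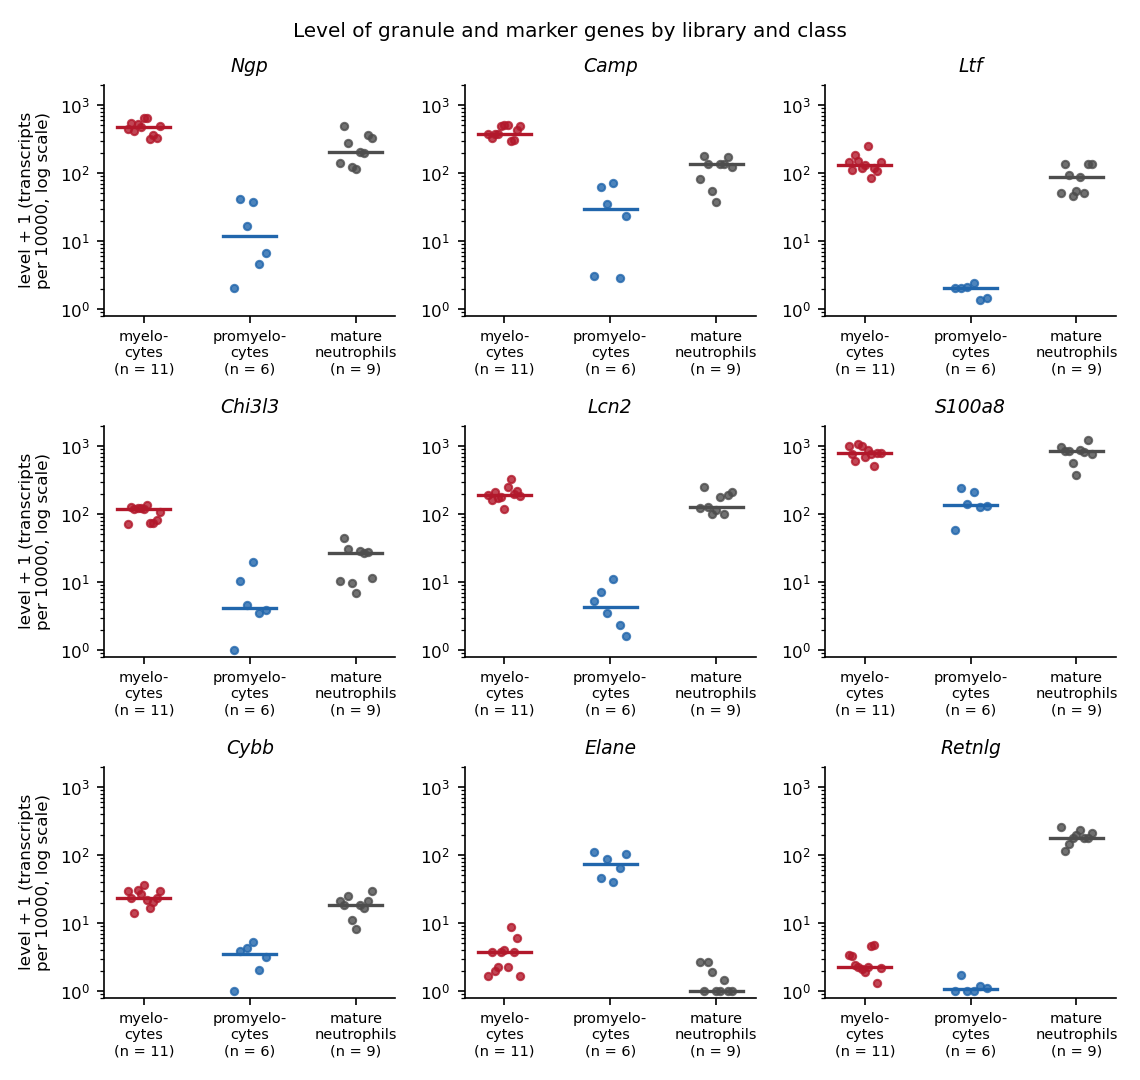
Level of 9 genes by library (points; transcripts per 10000 plus 1, log axis) in myelocytes, promyelocytes and mature neutrophils, with the median as a line. The libraries are those of the comparisons described in the text (11 for myelocytes). Ltf and Lcn2 were above all promyelocyte values and overlapped with mature neutrophils, while Chi3l3 overlapped with neither.

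The first comparison set myelocytes against promyelocytes in the 6 libraries with 3 or more cells of each class (64 myelocytes and 35 promyelocytes). Secondary granule genes and the oxidase genes were higher in myelocytes, and primary granule proteases, secretory pathway genes and all tested ribosomal protein genes were lower. Class sums were tested with edgeR's quasi-likelihood test with the library as a block, and 255 of 390 genes passed an adjusted p of 0.05 (65.4%). Of them 123 were higher (31.5%) and 132 lower (33.8%). With library totals in place of the TMM factors 69 were higher and 172 lower (17.7% and 44.1%), since the median over the tested genes was -0.49 on that scale and 0.04 with TMM, both log2 fold changes. Fold changes below use TMM and levels use library totals, so a fold change is higher than the ratio of the levels by about this shift.

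All 8 tested members of the secondary granule list were higher (median log2 fold change 4.44, against 0.04 for all genes), and all 8 were also higher with library totals. The list has 15 members, 2 of them rule genes that were not tested. This list is close in kind to the 2 genes that chose the cells. The filter on low counts also keeps a gene that has enough counts in 1 class alone. Genes low in promyelocytes, such as Ltf, Cd177, Cybb and Ifitm6, were tested only through myelocytes, so their direction was in part fixed by the filter. In the same way Ctsg and Calr, low in myelocytes, were tested only through promyelocytes. Ltf (lactotransferrin, which binds iron) had levels of 82.4, 132 and 245 (lowest, median and highest of 6 libraries) in myelocytes, against 0.341, 1.06 and 1.42 in promyelocytes, and no values overlapped. Its log2 fold change was 8.18 ± 0.46 (SE), with an edgeR adjusted p of 1.24e-16. Lcn2 (neutrophil gelatinase-associated lipocalin, which binds bacterial siderophores) had 158, 198 and 323 in myelocytes, against 0.589, 3.33 and 9.96 in promyelocytes (log2 fold change 6.63 ± 0.50). The groups were apart in each of the 6 libraries. Cd177, a surface glycoprotein of neutrophils, had 6.21, 11.4 and 16.3 in myelocytes, against 0, 0.137 and 0.711 in promyelocytes (6.09 ± 0.41). Chi3l3, a chitinase-like protein also called Ym1, had 71.4, 119 and 133 in myelocytes, against 0, 3.19 and 18.5 in promyelocytes (5.01 ± 0.39), and it has close paralogs whose reads the counting could have mixed. Without overlap between the classes in any library were 32.6% of all genes tested.

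Oxidase, lysozyme and S100 genes were higher as well. The filter limit given above holds here for Cybb and Ifitm6. All 4 tested members of the NADPH oxidase list were higher, and Cybb, the membrane subunit that makes superoxide, had 12.9, 21.6 and 28.4 in myelocytes, against 0, 2.48 and 4.27 in promyelocytes (log2 fold change 3.88 ± 0.26, adjusted p = 1.32e-14 by edgeR). Its partners Ncf1 (1.55 ± 0.27) and Rac2 (1.08 ± 0.17) were higher by less. The Rac2 call was lost without the filter on low counts (0.74, adjusted p = 0.289 by edgeR). The lysozymes Lyz1 (5.42 ± 0.28) and Lyz2 (5.42 ± 0.30) were both higher, but they are near-identical copies and the counting could have split their reads. Of 5 tested S100 and annexin genes 4 were higher, among them S100a9 (3.70 ± 0.62) and S100a8 (3.12 ± 0.56). S100a9 had levels of 368, 925 and 1132 in myelocytes, against 7.35, 114 and 349 in promyelocytes. Ifitm6, an interferon-induced transmembrane protein of the mature neutrophil list, was higher by 7.21 ± 0.56 on the log2 scale. Adpgk, the ADP-dependent glucokinase, was higher by 4.02 ± 0.34.

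Of 8 tested primary granule members outside the rule 7 were lower (median -3.18), and Serpinb1a, an inhibitor of those proteases, was the exception (0.37 ± 0.18, adjusted p = 0.0664 by edgeR). Ctsg (cathepsin G) had 0, 0.345 and 0.866 in myelocytes, against 19.2, 25.9 and 46.991 in promyelocytes, and its log2 fold change was -5.65 ± 0.34 (edgeR adjusted p = 5.03e-16). No library of either class overlapped with the other. Srgn (serglycin, the proteoglycan that packs proteases into granules, -3.99 ± 0.26), Cst7 (cystatin F, -3.98 ± 0.59), Nkg7 (-3.44 ± 0.35), Prss57 (neutrophil serine protease 4, -2.52 ± 0.42) and Ms4a3 (-2.39 ± 0.24) were lower as well. Plac8 (-2.91 ± 0.23) and the glutathione transferase Gstm1 (-2.80 ± 0.35) completed the lowest genes with Calr and Npm1.

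All 71 tested ribosomal protein genes were lower (median -1.14) and stayed so with library totals, and all 9 tested genes of the nucleolus and translation list were lower (median -1.27), among them Npm1 (nucleophosmin, -2.12 ± 0.32) and Eef1a1 (elongation factor 1 alpha, -1.52 ± 0.18). Of 8 tested secretory pathway genes 6 were lower and 2 were not called. Calr (calreticulin, a chaperone of the endoplasmic reticulum) had 0.557, 1.93 and 2.47 in myelocytes, against 9.96, 17.4 and 23.1 in promyelocytes (-2.98 ± 0.29, edgeR adjusted p = 1.22e-10). P4hb (protein disulfide isomerase) had a log2 fold change of -1.47 ± 0.26. The nuclear-encoded respiratory chain genes mostly did not pass the test (1 higher, 2 lower and 21 not called of 24), and with library totals 14 were lower.

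All 16 tested actin and motility genes were higher (median 1.17, against 0.04 for all genes). With library totals 9 of the 16 passed. Actb (beta-actin) was higher by 1.52 ± 0.23, while Tmsb4x (thymosin beta 4, 1.24 ± 0.35) and Arhgdib (0.83 ± 0.17) did not pass with library totals. Itgb2, the shared beta chain of the leukocyte integrins, was higher (2.70 ± 0.30), and the surface protein gene Ly6c2 was lower (-0.96 ± 0.18), although Ly6c2 has a near-identical copy.

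Cebpe, which encodes C/EBP epsilon, had 4.54, 5.90 and 7.64 in myelocytes, against 2.48, 3.60 and 4.91 in promyelocytes. It was higher in 6 of 6 libraries, the ranges overlapped, and its log2 fold change was 1.30 ± 0.27 (edgeR adjusted p = 6.11e-05). Without a filter on low counts the call was lost (0.95, adjusted p = 0.23 by edgeR). Gfi1 and Cebpa, factors of early granulocytes, did not pass the filter on low counts. Gfi1 had levels of 0, 0.960 and 2.39 in myelocytes, against 2.10, 3.95 and 8.34 in promyelocytes. Cebpa was found in 1 of 140 myelocytes and in 17 of 51 promyelocytes, which were deeper. Of 7 tested G2 and M phase genes 4 were higher, and with library totals 1 of 7. Mki67, a marker of dividing cells, had 5.84, 6.82 and 13.5 in myelocytes, against 2.10, 3.44 and 9.25 in promyelocytes (1.39 ± 0.26), and its call was lost without the filter (1.09, adjusted p = 0.0674 by edgeR). Top2a, which encodes topoisomerase II alpha, was higher with TMM (1.05 ± 0.24) and not with library totals (0.52, adjusted p = 0.0636 by edgeR). Fcnb (ficolin B), a gene known from early granulocytes, likewise passed with TMM (1.11 ± 0.32) and not with library totals (0.57, adjusted p = 0.136 by edgeR).

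The globin row named Beta-s was also higher in myelocytes (2.48 ± 0.27), with the red cell marker levels given above, and its part in the other results was not tested. A setting left out cells with 20 or more transcripts per 10000 of the red cell list without the globins. Cells with globin transcripts alone stayed in. Under it 128 genes were higher and 125 lower, and 113 and 123 of these were also called in the full comparison.

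**Figure D2:**
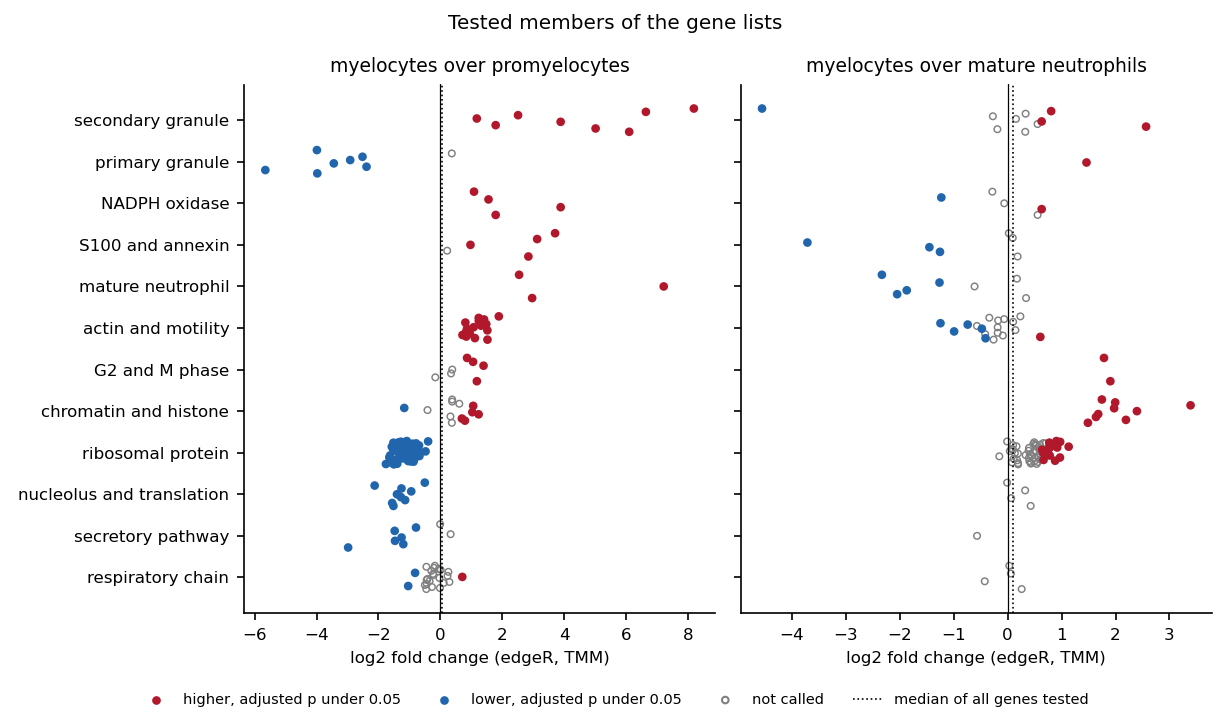
Log2 fold change (edgeR, TMM) of every tested member of 12 gene lists, for myelocytes over promyelocytes (left) and over mature neutrophils (right). Filled points passed an adjusted p of 0.05, open points did not, and the dotted line is the median of all genes tested (0.04 and 0.10). The ribosomal protein genes lie left of 0 on the left panel, where 71 of 71 were lower, and mostly right of it on the right panel, where 16 of 59 were higher.

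The second comparison set myelocytes against mature neutrophils in 9 libraries (93 myelocytes and 83 mature neutrophils). Tested chromatin and tubulin genes were higher in myelocytes, as were the 2 tested of 36 G2 and M phase genes. Mmp8, several receptors and some S100 genes were lower, while S100a8, S100a9 and the lysozymes were not called. Of 267 genes tested, 96 passed (36%), 49 higher (18.4%) and 47 lower (17.6%). The myelocyte libraries are in part those of the first comparison, so the 2 sets of fold changes share cells. With library totals 48 were higher (18%) and 49 lower (18.4%).

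Of 10 tested members of the secondary granule list 3 were higher, 1 was lower and 6 were not called, a share called close to the 36% of all genes. Chi3l3 had levels of 71.4, 118 and 133 (lowest, median and highest of 9 libraries) in myelocytes, against 5.81, 25.3 and 42.9 in mature neutrophils, with no overlap (log2 fold change 2.57 ± 0.26, edgeR adjusted p = 1.6e-07). Among all genes tested 7.12% were without overlap. Lcn2 had 117, 183 and 250 in myelocytes, against 100.1, 125 and 249 in mature neutrophils, and was not called (0.33 ± 0.22, adjusted p = 0.226 by edgeR). Ltf was higher (0.81 ± 0.26, adjusted p = 0.0179 by edgeR) with overlapping values, at 107, 129 and 245 in myelocytes, against 44.6, 85.8 and 135 in mature neutrophils. That call was lost without replicate 9 (0.68, adjusted p = 0.0797 by edgeR), without replicate 10 (0.68, adjusted p = 0.056), without cells that had red cell markers (0.68, adjusted p = 0.113), with cells of at least 2000 transcripts (0.24, adjusted p = 0.562) and with cells of 2000 to 6000 transcripts (0.48, adjusted p = 0.0783). Mmp8 (neutrophil collagenase) went the other way, with 0, 1.28 and 10.3 in myelocytes, against 36.3, 57.021 and 85.1 in mature neutrophils (-4.55 ± 0.49). The class of mature neutrophils also held cells with 300 or more of Ngp and Camp per 10000. With those cells left out, a setting chosen after seeing the data, 49 mature neutrophils in 6 libraries remained. This selects mature cells by low secondary granule genes, so higher fold changes of this list are in part set by the choice. Under it Lcn2 was called (1.16, adjusted p = 0.0105 by edgeR), Ltf was higher by 3.17 and Chi3l3 by 4.60, while Mmp8 stayed lower (-4.57).

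S100a8 (0.10 ± 0.15), S100a9 (0.02 ± 0.16), Lyz1 (-0.06 ± 0.19) and Lyz2 (0.02 ± 0.16) were not called. S100a9 had 482, 838 and 1052 in myelocytes, against 397, 866 and 1181 in mature neutrophils. S100a6 (calcyclin) stood apart from these, with 1.24, 2.23 and 16.015 in myelocytes, against 25.9, 45.1 and 89.4 in mature neutrophils (-3.71 ± 0.25, edgeR adjusted p = 2.48e-10). Serpinb1a (1.45 ± 0.24), Cybb (0.63 ± 0.16) and Lta4h, the leukotriene A4 hydrolase (1.95 ± 0.33), were higher in myelocytes. With cells of at least 2000 transcripts the calls of Cybb (0.44, adjusted p = 0.302 by edgeR) and Lta4h (1.48, adjusted p = 0.0867) were lost, and with cells of 2000 to 6000 that of Cybb (0.54, adjusted p = 0.232). C3, the third complement component, was higher by 2.31 ± 0.38. Of 5 tested NADPH oxidase list members 1 was higher (Cybb), 1 was lower and 3 were not called (median -0.06). Of 18 tested actin and motility genes 1 was higher, 5 were lower and 12 were not called (median -0.22).

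Of 7 tested members of the mature neutrophil list 4 were lower and 3 were not called (Ifitm6, Pglyrp1 and 1100001G20Rik). Cxcr2, the receptor for the chemokines that draw neutrophils out of the marrow, had 0.440, 2.05 and 7.41 in myelocytes, against 2.83, 10.0 and 20.8 in mature neutrophils (-2.05 ± 0.32, edgeR adjusted p = 2.83e-05). It was lower in 9 of 9 libraries although the ranges overlapped. Slpi, a protease inhibitor (-2.33 ± 0.25), Fpr2, a formyl peptide receptor (-1.87 ± 0.23), Mxd1, a MYC antagonist (-1.92 ± 0.24), Slc2a3, a glucose transporter (-1.97 ± 0.25), the ferritin heavy chain Fth1 (-2.21 ± 0.25), Grina (-2.59 ± 0.31) and galectin 3 (Lgals3, -1.72 ± 0.26) were lower too. The leukotriene gene Alox5ap was lower (-0.80 ± 0.20), a call lost without the filter (-0.41), with cells of at least 2000 transcripts (-0.86) and of 2000 to 6000 (-0.90) and without the mature neutrophils rich in Ngp and Camp (-0.73), while Lta4h of the same list was higher. Cxcr4, the receptor that holds cells in the marrow, was too low to be tested, with mean levels of 2.11 ± 1.88 in myelocytes and 3.09 ± 2.06 in mature neutrophils (SD, n = 9 each).

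Of the 20 chromatin and histone list members 9 were tested, and all 9 were higher (median 1.97, against 0.10 for all genes). The filter on low counts keeps a gene that has enough counts in 1 class alone. Stmn1 and Mki67, low in mature neutrophils, were tested only through myelocytes, so their direction was in part fixed by the filter. In the same way Mmp8 and S100a6, low in myelocytes, were tested only through mature neutrophils. Stmn1 (stathmin, a microtubule regulator) had 5.57, 7.38 and 12.4 in myelocytes, against 0, 0 and 3.61 in mature neutrophils (3.39 ± 0.47, edgeR adjusted p = 6.01e-06). Hmgn2 (2.40 ± 0.23), H2afz (histone H2A.Z, 2.19 ± 0.21), Tuba1b (alpha-tubulin, 1.99 ± 0.32), Ptma (prothymosin alpha, 1.97 ± 0.29) and Hmgb2 (1.68 ± 0.18) followed, as did the prolyl isomerase Ppia (2.16 ± 0.28). Mki67 had 5.13, 6.71 and 12.9 in myelocytes, against 0, 0.960 and 6.90 in mature neutrophils, and was higher in 9 of 9 libraries (1.90 ± 0.42, adjusted p = 0.00124 by edgeR). Top2a was higher by 1.79 ± 0.41. These 2 calls were lost where only cells of 2000 or more transcripts entered (Mki67 1.13, adjusted p = 0.182 by edgeR, and Top2a 1.05, adjusted p = 0.312), which left 19 mature neutrophils in 5 libraries with 2 or more cells of each class. They were also lost with cells of 2000 to 6000 (Mki67 1.38, adjusted p = 0.0826 by edgeR, and Top2a 1.03, adjusted p = 0.275). Cebpe was higher (1.53 ± 0.34), with 4.54, 6.12 and 9.69 in myelocytes, against 0, 2.36 and 7.56 in mature neutrophils, and its call too was lost with cells of 2000 or more transcripts (1.29, adjusted p = 0.111 by edgeR). Fcnb did not pass the filter and is described only, at 3.03, 7.79 and 24.2 in myelocytes and 0, 0.548 and 1.59 in mature neutrophils. The ribosomal protein genes were higher in 16 of 59 cases and not called in 43 (median 0.53). Among all genes tested 18.4% were higher and 36% were called in either direction. The call of Rpsa was lost with cells of 2000 or more transcripts (0.32, adjusted p = 0.562 by edgeR) and of 2000 to 6000 (0.38, adjusted p = 0.478). It was also lost without the mature neutrophils rich in Ngp and Camp (0.61, adjusted p = 0.135 by edgeR). The Beta-s row was lower in myelocytes here (-0.95 ± 0.30), with the red cell levels given above, and its part was not tested. Without cells with red cell markers, by the list without the globins, 53 genes were higher and 50 lower.

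Whole-cell values were taken per library and class and tested with an exact sign-flip permutation test over libraries, 2-sided and adjusted over 12 values. With 6 libraries the smallest p it can give is 0.0312, and with 9 it is 0.00391. A myelocyte had 2467 ± 904 transcripts, against 5934 ± 2837 in a promyelocyte (median per library, mean ± SD, n = 6 each), and was lower in 6 of 6 libraries (exact p = 0.0312, adjusted 0.0375). It had 3155 ± 790, against 1585 ± 175 in a mature neutrophil (n = 9 each), and was higher in 9 of 9 libraries (exact p = 0.00391, adjusted 0.00781). Cells with under 1000 transcripts were left out of all classes, which cuts the low end of each. Transcripts over spike-in transcripts gave the same order in the per-library files, at 13.01 ± 5.03 in myelocytes, against 28.02 ± 12.2 in promyelocytes, and 13.3 ± 4.97 in myelocytes, against 5.88 ± 1.75 in mature neutrophils (n = 9 each, exact adjusted p = 0.00781 for both). These spike-in values were not planned, and they are among the 12 adjusted together. With every cell thinned to 1000 tags, myelocytes had 548 ± 25.2 genes, against 651 ± 31.9 in promyelocytes (n = 6, exact adjusted p = 0.0375), and 569 ± 18.1, against 542 ± 20.1 in mature neutrophils (n = 9, exact adjusted p = 0.00781). At 2000 tags neither difference passed (exact adjusted p = 0.0625 for promyelocytes, with 6 libraries, and 0.141 for mature neutrophils, with 7). These p-values were adjusted only over the values of this setting in both comparisons, and 6 libraries can give no p below 0.0312. Both differences kept their direction.

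Ribosomal protein transcripts summed to 616 ± 124 per 10000 in myelocytes, against 1926 ± 174 in promyelocytes, and were lower in 6 of 6 libraries (n = 6, exact adjusted p = 0.0375). They summed to 605 ± 134 in myelocytes, against 424 ± 120 in mature neutrophils, and were higher in 8 of 9 libraries (n = 9, exact adjusted p = 0.0268). In replicate 17 they were lower in myelocytes, 418 against 530. The G2 and M phase list summed to 85.98 ± 32.6 in myelocytes, against 70.99 ± 28.7 in promyelocytes, higher in 3 of 6 libraries and without a detectable difference (n = 6, exact adjusted p = 0.375). The difference was 4.69 without replicate 2, 9.26 without replicate 11 and 22.6 without replicate 17. It summed to 80.7 ± 29.4 in myelocytes, against 17.6 ± 18.5 in mature neutrophils, and was higher in 9 of 9 (n = 9, exact adjusted p = 0.00781). The S phase list gave 35.3 ± 21.5 in myelocytes, against 45.5 ± 13.2 in promyelocytes (lower in 5 of 6, n = 6, exact adjusted p = 0.205, with a difference of -15.9 without replicate 17), and 35.04 ± 18.1 in myelocytes, against 9.05 ± 6.32 in mature neutrophils (higher in 9 of 9, n = 9, exact adjusted p = 0.00781). An S or G2 phase level is the abundance of a gene list, not a count of cycling cells.

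**Figure D3:**
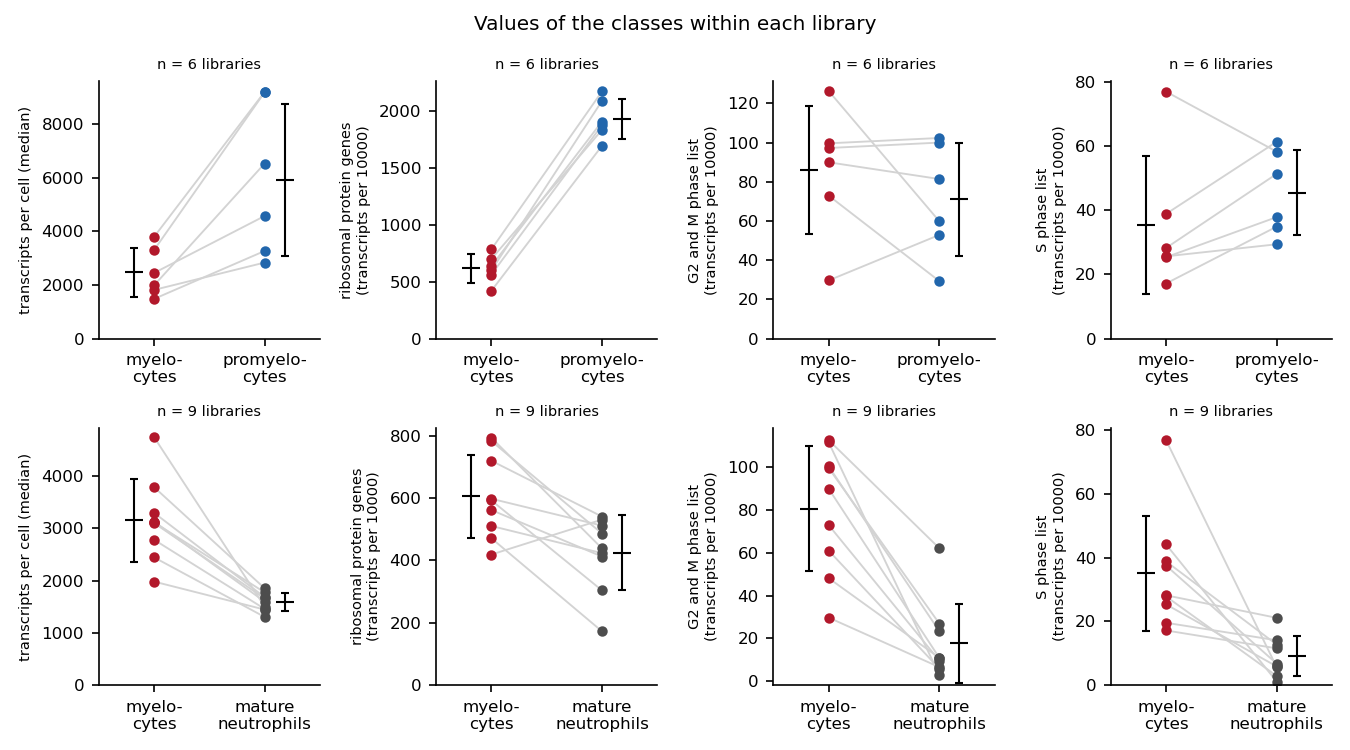
Values per library (points, joined within a library) of transcripts per cell, ribosomal protein genes, and the G2 and M phase and S phase lists, in myelocytes and promyelocytes (top, 6 libraries) and in myelocytes and mature neutrophils (bottom, 9 libraries); bars are the mean ± SD. Myelocytes were lower than promyelocytes in transcripts and ribosomal protein genes in 6 of 6 libraries and higher than mature neutrophils in both cycle lists in 9 of 9.

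Within the class the cells were spread over a wide range of cycle gene levels. The G2 and M phase list ran from 0 to 264 per 10000 with a median of 84.3 and quartiles of 22.3 and 123. Thinned to 1000 tags, 62.3% of 138 myelocytes had 5 or more tags of the list (a limit chosen after the values were seen), beside 52.9% of 51 promyelocytes, 3.70% of 81 mature neutrophils and 5.31% of 245 sorted HSC, and 89.8% of 254 erythroid cells. Before thinning Mki67 was found in 73.6% of myelocytes, and after it in 52.2%, beside 17.3% of mature neutrophils.

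The relations between genes from cell to cell are descriptions over cells of shared libraries, on levels that share a total, and carry no p. Over the 140 myelocytes Ltf correlated with Lcn2 (Spearman 0.611) and with Ngp (0.617), in the same direction in each of the 8 libraries with 10 or more myelocytes. Camp, whose gene lies on the same chromosome as Ngp and Ltf, had coefficients of 0.202 with Ltf and 0.200 with Ngp, and in 3 of 8 libraries each was negative. The cells were selected on the sum of Ngp and Camp, which conditions the relations of these genes. Chi3l3 had 0.143 with Ltf, but the median within libraries was -0.105 and 5 of 8 were negative. Ltf was lower where ribosomal protein transcripts were higher (-0.704, within libraries -0.903 to -0.626), and it ran against the G2 and M phase list (-0.402) and the S phase list (-0.495), negative in 8 of 8 libraries for both. Ltf also ran against the small remainder of primary granule transcripts (-0.501) and with Retnlg and Mmp9 (0.435), 2 sums that the rule capped. Fcnb ran the other way, with the S phase list (0.377) and against Ltf (-0.365). Depth moved with these levels, and more so within libraries. Transcripts per cell had a coefficient of 0.315 with the G2 and M phase list (median within libraries 0.557), 0.217 with the ribosomal protein genes (0.506), 0.096 with the S phase list (0.279) and -0.171 with Ltf (-0.417). With Lcn2 it was -0.156 (-0.353), and with Fcnb, a sparse gene, 0.376 (0.488). The part of depth in the relations was not tested.

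**Figure D4:**
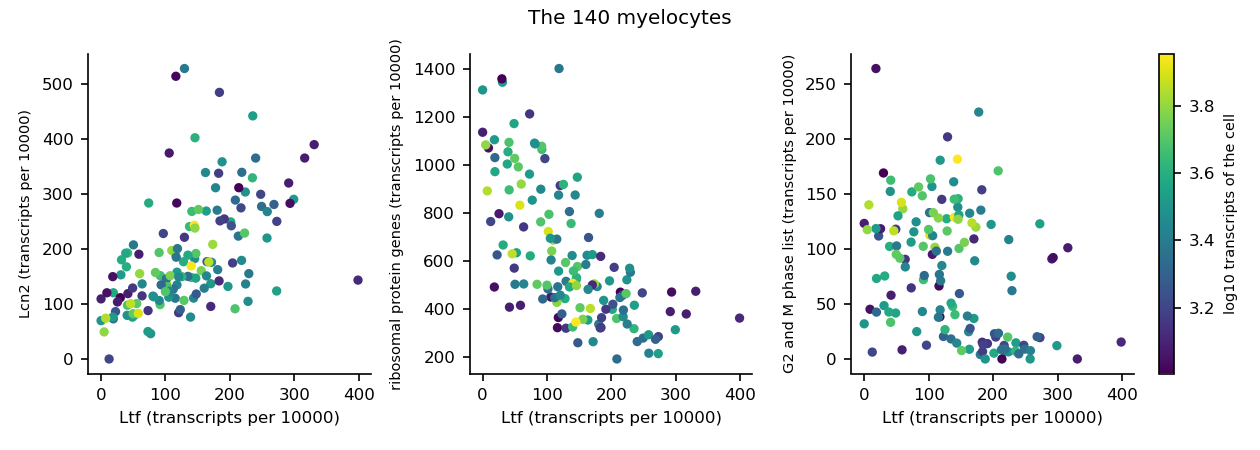
The 140 myelocytes, with the Ltf level against those of Lcn2, the ribosomal protein genes and the G2 and M phase list (transcripts per 10000), coloured by the transcripts of the cell on a log10 scale. Lcn2 climbed with Ltf (Spearman 0.611), the ribosomal protein genes ran down with it (-0.704), and so did the G2 and M phase list (-0.402).

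Clump records give the neighbours. The clump number in the cell names placed the myelocytes in 118 clumps, 101 of the 140 myelocytes had at least 1 kept partner, and 21 clumps held 2 or more of them (at most 3). Of 128 partners 35.9% were myelocytes, which were 19.8% of kept cells, 31.2% were erythroid cells (38.6% of kept cells), 9.38% mature neutrophils (12.02%) and 3.91% promyelocytes (7.21%). Pairs of myelocytes are counted from both sides, cells of 1 clump share a library, and no test was made.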

How the data were processed

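The authors deposited estimated counts of transcripts per gene and cell, in a table of all cells and in 1 file per library. The values of the table are whole numbers of tags, of 256 possible, corrected for repeats (100% within 0.001). Per the submitters' processing notes, BWA 0.6.2-r126 and the mm10 build were used, with no role given. The table holds 23536 gene rows, and none is mitochondrial. Sorted HSC replicate 2 was not analysed here.

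Cells with 1000 or more transcripts were kept and classed by the rule. Class sums of libraries with at least 3 cells of both classes (8118 to 74604 transcripts for myelocytes, 9570 to 85110 for promyelocytes and 6310 to 44368 for mature neutrophils) were rounded and tested with edgeR 4.0.16 (quasi-likelihood, TMM, filterByExpr, library as a block, Benjamini-Hochberg over all genes tested without the 7 rule genes). The SE is the absolute log2 fold change over the root of F, an approximation. Both classes of a library share its cells' handling and sequencing, and their deviations from the class means correlated at 0.245 to 0.404 for promyelocytes (6 of 6 pairs over 0.1) and 0.038 to 0.556 for mature neutrophils (8 of 9). Named were the 10 highest and 10 lowest genes that passed, the 3 most abundant tested members of each list and a fixed set of markers. Beta-s and Il1b were added after their values were seen. The members and lists were chosen with earlier results of these data known. On simulated data the fit made few false calls where few genes changed and more where most of the tested genes changed. In that second case false calls were many in the comparison with mature neutrophils. With 65.4% of genes called against promyelocytes and 36% against mature neutrophils, the TMM scale is uncertain in both. As the design set, the minimum was 2 cells where fewer than 4 libraries had 3. Other software was R 4.3.3, DESeq2 1.42.0, Python 3.11.15 and scipy 1.17.1. Intervals cover counting error only.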

Additional observations from a re-analysis of the deposited data

Results flagged for a closer look

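In the comparison with promyelocytes, the Mki67 difference in library 2 lay far from those of the other 5 libraries. It was 2.23 on the log2(level + 1) scale (levels of 13.5 transcripts per 10000 in myelocytes and 2.10 in promyelocytes), and the other libraries lay between 0.327 and 0.774. Of 42 groups of values checked in this way 1 stood apart, and chance alone would give about 1 in 20.

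Library 18 has a file of its own and no columns in the table of all cells, so it entered no comparison on that table. By the same rule 8 of its 83 kept cells were myelocytes (9.64%, where a count of 0 would allow up to 3.61%), with medians of 2607 transcripts a cell and 949.7 transcripts of Ngp and Camp per 10000.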

How the results depend on the processing

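Against promyelocytes, 69 genes were higher with library totals and 52 with cells of 2000 to 6000 transcripts (a setting chosen after seeing the data), and 201 were lower with no filter and 27 with those cells. Against mature neutrophils, the higher and lower counts were 210 and 135 with no filter, 75 and 89 with a minimum count of 5, 13 and 18 with cells of 2000 or more transcripts, and 12 and 15 with cells of 2000 to 6000. The settings of 2000 or more and 2000 to 6000 transcripts also leave fewer cells and genes to test. Apart from 2000 or more against promyelocytes, they took libraries with 2 or more cells of a class in place of 3, so depth and this minimum changed together. Leaving out 1 library at a time gave 93 to 140 higher and 105 to 144 lower genes against promyelocytes, and 40 to 53 and 42 to 57 against mature neutrophils. Without the library as a block, the counts were 107 and 118 against promyelocytes and 44 and 43 against mature neutrophils. Among single genes 3 changed sign, Gsr with library totals (-0.069) and Tpt1 with cells of 2000 to 6000 transcripts (0.23) against promyelocytes, and Actg1 with no filter (0.0092) against mature neutrophils. The cause was not tested. Calls of named genes were lost most often with no filter (21 of them), with cells of 2000 to 6000 transcripts (11) and of 2000 or more (10).

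The differences below kept their direction and missed the threshold. Settings on depth and red cell markers, and leaving out 1 library against promyelocytes, left 4 or 5 libraries, where the exact test cannot pass. Against promyelocytes, the difference in transcripts per cell was -2228 with cells of 2000 or more transcripts and -3382 without cells with red cell markers. That in genes at a fixed depth was -73.3 and -103 under these settings, -120 at 2000 tags (6 libraries, exact adjusted p = 0.0625) and -63.2 with cells of 2000 to 6000. That in ribosomal protein level was -1269, -1347 and -1131 (2000 or more, no red cell markers, 2000 to 6000). Leaving out 1 library gave -3956 to -2982 transcripts, -110 to -96.7 genes and -1346 to -1275 ribosomal protein transcripts per 10000. The cycle lists, not called in any case, gave 4.69 to 22.6 (G2 and M) and -15.9 to -7.55 (S). Against mature neutrophils, cells of 2000 or more transcripts gave differences of 910 transcripts, 29.5 genes, 13.6 (S phase list), 74.2 (G2 and M phase list) and 183.2 (ribosomal protein level). Cells of 2000 to 6000 gave 19.4 genes, 17.5, 63.2 and 183.3 for the same lists, and 2000 tags gave 36.1 genes, higher in 5 of 7 libraries (exact adjusted p = 0.141). The share of myelocytes was 14.6% to 22.1% under all 9 other limits and files tried.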
